A study of Drosophila melanogaster with 18 samples.

Results

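The genes that build and run the mitotic spindle, the kinetochores, condensin and the cytokinetic furrow were followed across wing discs that expressed a dominant negative Tip60, a wild type Tip60 or neither. The members were 51 genes, listed by symbol, and 50 of them were found among the 17559 genes of the count tables. The exception, Top2, was not matched by its identifier and was not analysed here. All 50 passed the filter on low counts at both durations. They fall into 9 subgroups by role: mitotic kinases with the chromosomal passenger complex, kinesins, cytokinesis, spindle checkpoint, centromere and kinetochore, spindle microtubule-associated proteins, centrosome, condensin, and separase with the Cks proteins.

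The tissue was the wing imaginal disc of Drosophila melanogaster, the epithelial sac of the larva that forms the adult wing, taken from wandering larvae at the end of larval life. There were 6 groups of 3 libraries: dominant negative Tip60 (Tip60dn), wild type Tip60 (Tip60wt) and a control, each at 48 h and at 78 h of transgene expression. All animals, the control arm included, were heat-shocked at 37 °C for 30 min to induce overlapping clones and kept at 18 °C, where the transgene is silent. They were moved to 28 °C 48 h or 78 h before dissection. Each library pooled the polyadenylated RNA of 40 discs. The labels give neither the driver of the transgenes, nor the share of the disc that the clones covered, nor the genotype of the control beyond its name, so a disc may mix cells with and without the transgene. They do not say whether replicates came from separate crosses, and p-values measure the spread between these pools.

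Tip60 is the enzyme within NuA4, a chromatin complex that acetylates histones and swaps histone variants at many genes. In a dividing cell, spindle microtubules grow from centrosomes, are sorted by kinesins and are caught by kinetochores, the protein plates that assemble on centromeric chromatin. The spindle checkpoint delays anaphase until every kinetochore is attached, condensin compacts the chromosomes, separase cuts the cohesin that holds sister chromatids, and the central spindle then places the cleavage furrow. Transcripts of many of these genes accumulate in G2 and mitosis, and in the wing disc, a proliferating epithelium, their level in bulk RNA depends on both the share of dividing cells and the amount of transcript in each. Fewer dividing cells and less RNA per cell cannot be told apart here.

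Library totals lay between 65277725 and 105716567 counts. Counts per 1e+06 library counts (CPM) below are scaled by edgeR's trimmed mean of M values (TMM), and a gene is called at a Benjamini-Hochberg adjusted p under 0.05 in edgeR's two-sided quasi-likelihood test over all genes tested, with no minimum fold. The error after a log2 fold change is its SE, and where 2 values are given for 1 gene without a time they are those at 48 h and 78 h. Tip60 itself lay at 2514 to 3357 CPM in Tip60dn, 1500.2 to 1866 CPM in Tip60wt and 30.8 to 35.8 CPM in control libraries at 48 h. At 78 h it lay at 1644 to 2429 CPM in Tip60dn, 984 to 1990.4 CPM in Tip60wt and 33.2 to 44.9 CPM in control libraries. Both transgenes carry Tip60 sequence, so these counts do not tell which transgene a library held. Of 8 listed wing disc markers 7 were matched, and all were present, with a summed level of 2100.3 to 2304 CPM in Tip60dn, 2074 to 2148 CPM in Tip60wt and 1915 to 2116 CPM in control libraries at 48 h. These 7 summed at 78 h to 2088 to 2273 CPM in Tip60dn, 1932 to 2115 CPM in Tip60wt and 1989 to 2025 CPM in control libraries. Against Tip60wt 0 of them were called at either duration. Against the control 1 was called higher at 48 h and 2 at 78 h, with median log2 fold changes of 0.16 at each. Markers of other cell types also differed between Tip60dn and the other groups. The 11 matched hemocyte markers (of 12 listed) summed to 805 to 1131 CPM in Tip60dn, 401 to 437 CPM in Tip60wt and 399.6 to 478 CPM in control libraries at 48 h. Their sums were 509 to 1011 CPM in Tip60dn, 365 to 478 CPM in Tip60wt and 456 to 529 CPM in control libraries at 78 h, where Tip60dn replicate 1 alone overlapped the control. Hml, for example, stood at 60.8 CPM in that library and at 177 and 183 CPM in Tip60dn replicates 2 and 3. In control libraries Hml lay at 57.9 to 63.2 CPM, so the Tip60dn replicates at 78 h differed in hemocyte markers. Against Tip60wt, 10 of these 11 were called higher at 48 h and 11 at 78 h. The 6 myoblast markers summed to 305 to 337 CPM in Tip60dn, 276 to 298 CPM in Tip60wt and 269.7 to 297 CPM in control libraries at 48 h, with 1 called higher against Tip60wt. Their sums were 328 to 339 CPM in Tip60dn, 258 to 292 CPM in Tip60wt and 272 to 301 CPM in control libraries at 78 h, when 6 were called higher. The 4 matched tracheal markers (of 5) summed to 904 to 944 CPM in Tip60dn, 814 to 876 CPM in Tip60wt and 733 to 799 CPM in control libraries at 48 h. Their sums were 904 to 948 CPM in Tip60dn, 834 to 891 CPM in Tip60wt and 753 to 779.8 CPM in control libraries at 78 h. Of these 4, 2 were called higher against Tip60wt at each duration. The 5 neuronal markers summed to 48.4 to 52.4 CPM in Tip60dn, 70.3 to 73.8 CPM in Tip60wt and 70.4 to 73.0 CPM in control libraries at 48 h. Their sums were 47.4 to 54.5 CPM in Tip60dn, 63.3 to 70.7 CPM in Tip60wt and 68.0 to 71.3 CPM in control libraries at 78 h. Against Tip60wt, 2 of them were called higher and 1 lower at 48 h, and 3 higher and 1 lower at 78 h. The lower sum came from elav, which averaged 31.5 CPM in Tip60dn and 64.1 CPM in Tip60wt discs at 48 h. Appl averaged 13.8 CPM in Tip60dn and 3.27 CPM in Tip60wt discs at 48 h. The median log2 fold change of the neuronal markers against Tip60wt was above 0, at 0.27 and 0.89. No marker was at 0 in any library. The part of these cells in the results below was not tested.

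Most of the 50 members, which were chosen with earlier results of these data known, were lower in Tip60dn discs. Their summed level was 6134, 6135 and 6773 CPM in the 3 Tip60dn libraries at 48 h, against 7021, 7433 and 6931 CPM in Tip60wt and 7421, 7782 and 7163 CPM in control libraries. At 78 h the sums were 6736, 6420 and 6305 CPM in Tip60dn, 7761, 7440 and 7153 CPM in Tip60wt and 7453, 7724 and 7523 CPM in control libraries. At both durations every Tip60dn library was below every Tip60wt and every control library, while the Tip60wt and control libraries overlapped. Reads per kilobase of exon and 1e+06 library counts (RPKM), which allow genes of different length to be compared, ranged in control discs at 48 h from 4.05 ± 0.243 for Cks85A to 175 ± 11.5 for polo (mean ± SD, n = 3), with a median of 40.2 over the 50 genes. After polo the highest levels per length were those of Bub3 at 129, Cks30A at 117, feo at 79.4 and msps at 77.6 RPKM, and after Cks85A the lowest were those of cid at 8.35, Sse at 9.73 and Sas-6 at 10.9 RPKM.

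**Figure D1:**
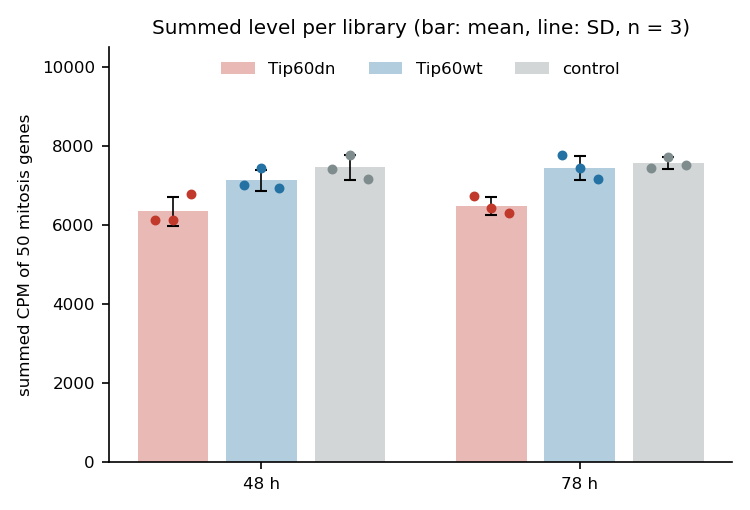
Summed CPM of the 50 mitosis genes in each library (points), with the group mean (bar) and SD (line, n = 3), for Tip60dn, Tip60wt and control discs at 48 h and 78 h. The Tip60dn means are 6347 and 6487 CPM, and no Tip60dn library reaches the lowest Tip60wt or control library of its duration.

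Against Tip60wt, 25 of the 50 genes were called lower and 3 higher at 48 h, and 36 lower and 1 higher at 78 h. Over all genes tested, 17.7% were called lower and 18.0% higher at 48 h, and 19.2% lower and 17.6% higher at 78 h. Among all genes whose mean CPM lay within the range of the members, 26.7% were called lower at 48 h and 29.3% at 78 h. Against the control, 32 were called lower and 2 higher at 48 h, where 19.4% and 19.6% of all genes were, and 40 lower and 2 higher at 78 h, where 21.7% and 22.4% were. The changes were small: the genes called lower against Tip60wt fell by 8.56% to 27.7% at 48 h (median 16.2%) and by 9.02% to 30.3% at 78 h (median 16.8%). The median log2 fold change of the 50 genes was -0.17 at 48 h and -0.22 at 78 h against Tip60wt, and -0.25 and -0.23 against the control, beside medians of 0.01 to 0.03 over all genes tested. With upper quartile scaling the medians of the 50 genes were -0.09 and -0.15 against Tip60wt and -0.17 and -0.15 against the control, beside 0.09 to 0.11 over all genes. The comparisons with Tip60wt and with the control share their Tip60dn libraries. In 27 of the 50 genes all 3 Tip60dn libraries were below all 3 Tip60wt libraries at 48 h, and in 38 at 78 h, against 24.0% and 23.6% of all genes tested. The 48 h count against Tip60wt rests on single libraries: it was 13 without Tip60dn replicate 1, 13 without Tip60dn replicate 2 and 14 without Tip60wt replicate 2. Each call was recomputed under 16 alternatives of scaling, filter, tool, block or left-out library. At least 1 of them ended 15 of the 28 calls at 48 h and 11 of 37 at 78 h against Tip60wt, and 9 of 34 and 14 of 42 against the control. With upper quartile scaling, the counts called lower were 12 at 48 h and 25 at 78 h against Tip60wt, and 23 and 26 against the control. That scaling also moved the split over all genes, to 1055 lower and 2662 higher at 48 h and 1239 and 2539 at 78 h against Tip60wt, beside 1894 and 1924, and 2031 and 1869, with TMM. Against the control it gave 1215 and 2880 at 48 h and 1519 and 3146 at 78 h, beside 2074 and 2098, and 2305 and 2378, with TMM.

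**Figure D2:**
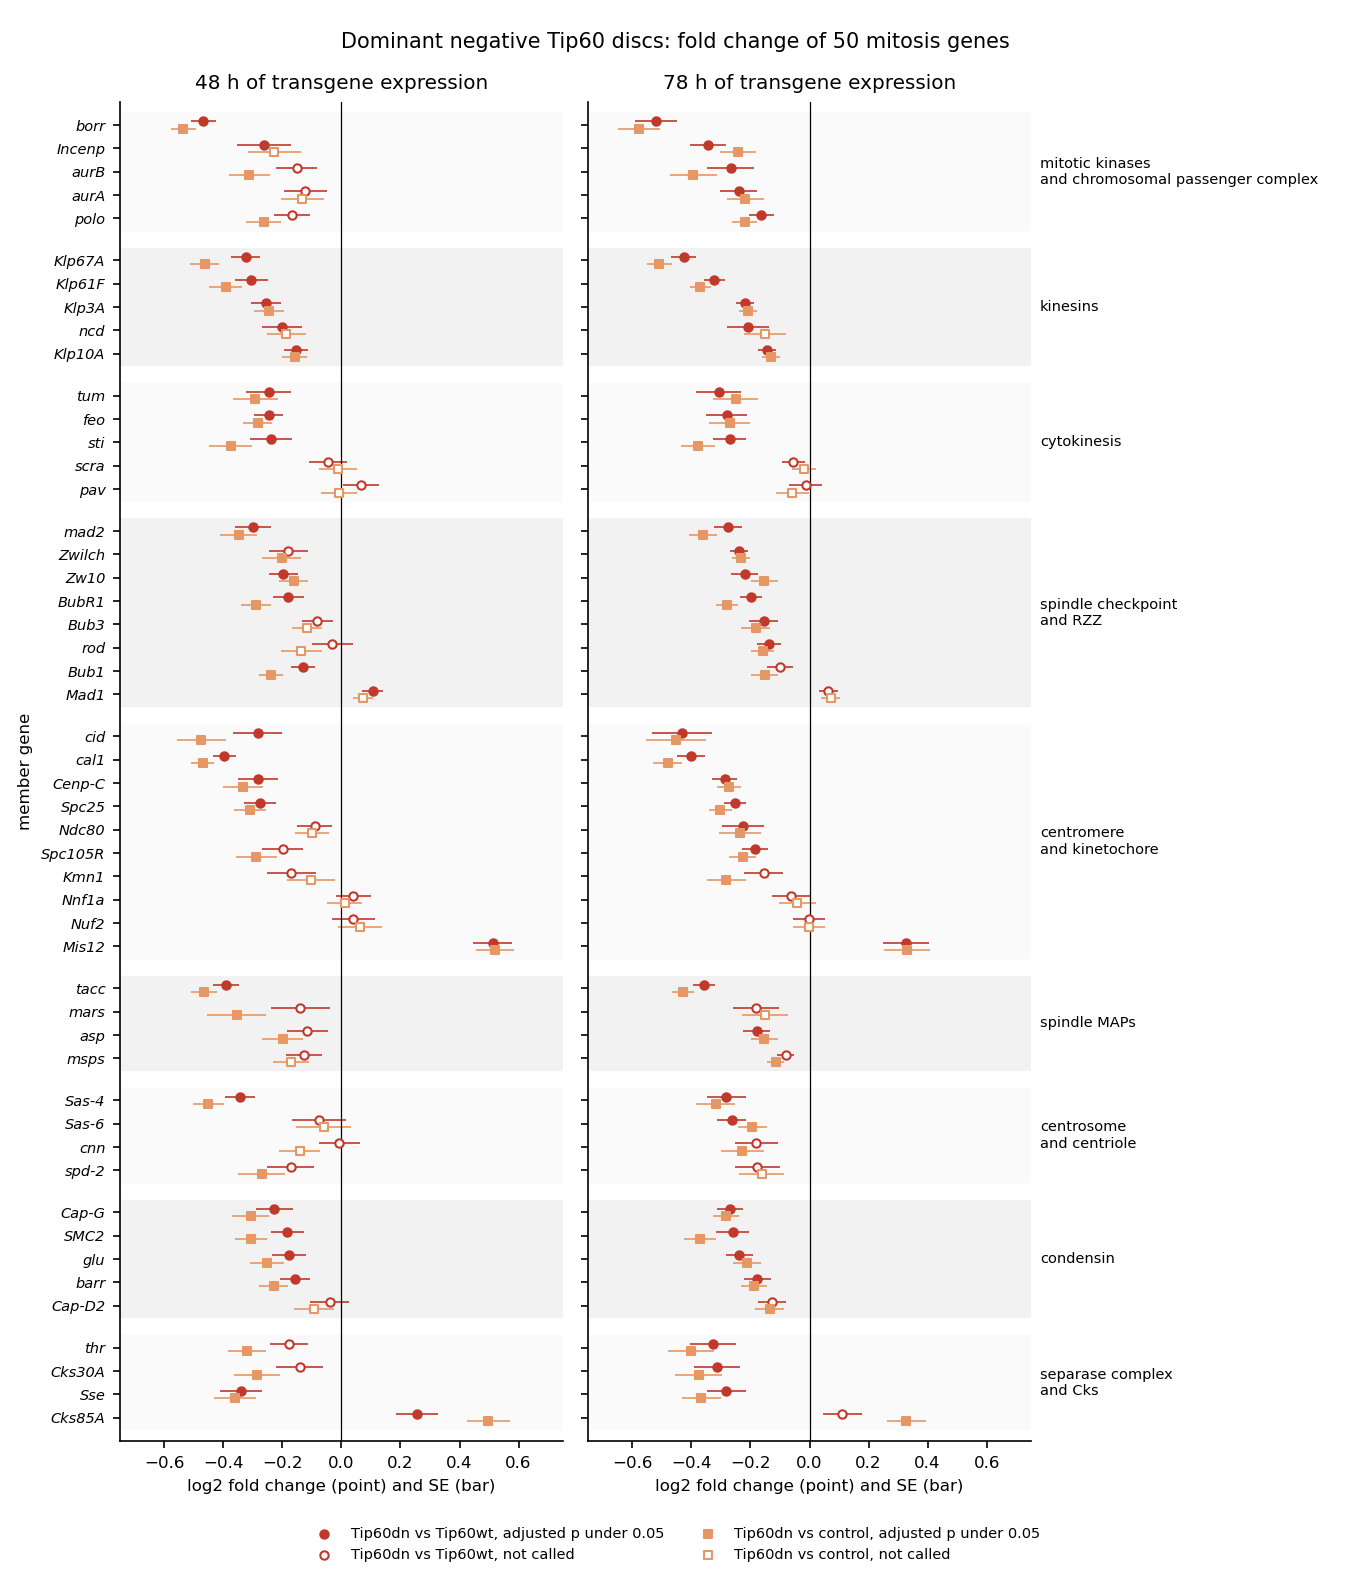
Log2 fold change (point) and SE (bar) of each of the 50 mitosis genes in Tip60dn discs against Tip60wt (circles) and control (squares), at 48 h (left) and 78 h (right), ordered by subgroup. Filled symbols have an adjusted p under 0.05; most points lie left of 0, and Mis12 lies to the right of it in all 4 comparisons.

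Among the mitotic kinases and the chromosomal passenger complex, 2 of 5 genes fell at 48 h and all 5 fell at 78 h against Tip60wt. The shares called lower over all genes tested were 17.7% and 19.2%. The gene with the lowest log2 fold change of all 50 in this comparison was borr (BDGP6, chromosome 2L, 9251472 to 9253118, minus strand), which encodes Borealin, the subunit that helps to dock the passenger complex on chromatin and the central spindle. At 48 h borr stood at 64.5, 64.8 and 69.5 CPM in Tip60dn discs, against 90.7, 90.0 and 94.3 CPM in Tip60wt discs and 98.4, 95.9 and 93.9 CPM in control discs. At 78 h it stood at 72.7, 67.0 and 60.1 CPM in Tip60dn discs, against 102, 92.6 and 92.1 CPM in Tip60wt discs and 95.3, 102 and 101 CPM in control discs. All Tip60dn libraries were below all Tip60wt and control libraries at both durations. Its log2 fold change against Tip60wt was -0.47 ± 0.04 at 48 h, adjusted p = 8.35e-05, and -0.52 ± 0.07 at 78 h, adjusted p = 0.000637. Against the control it was -0.54 ± 0.04 (adjusted p = 3.54e-05) and -0.58 ± 0.07 (adjusted p = 0.000271). Incenp, the scaffold of the same complex, also fell at both durations (log2 fold change -0.26 ± 0.09, adjusted p = 0.0465, and -0.34 ± 0.06 against Tip60wt). aurB, its kinase, had a log2 fold change of -0.15 ± 0.07 at 48 h, which did not pass (adjusted p = 0.117), and fell at 78 h (log2 fold change -0.27 ± 0.08, adjusted p = 0.0270). The other kinases, polo, which acts from mitotic entry to cytokinesis, and aurA, which matures centrosomes, had log2 fold changes of -0.17 ± 0.06 and -0.12 ± 0.07 at 48 h without passing and fell at 78 h (log2 fold change -0.16 ± 0.04 and -0.24 ± 0.06). Against the control, polo, aurB and borr fell at 48 h and all 5 genes fell at 78 h, while Incenp did not pass at 48 h (log2 fold change -0.23 ± 0.09, adjusted p = 0.0721). Of the 16 alternatives, the calls against Tip60wt held for Incenp in 9 (adjusted p up to 0.149) at 48 h, and for polo in 12 (adjusted p up to 0.104), aurA in 14 (adjusted p up to 0.0581) and aurB in 11 (adjusted p up to 0.0941) at 78 h.

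All 5 kinesins fell against Tip60wt at both durations, where 17.7% and 19.2% of all genes tested were called lower. Klp67A (BDGP6, chromosome 3L, 9362636 to 9367046, minus strand), a kinesin that shortens microtubule plus ends and limits spindle length, had 65.3, 65.4 and 70.3 CPM in Tip60dn discs, against 85.0, 85.6 and 81.1 CPM in Tip60wt discs and 89.1, 97.4 and 90.5 CPM in control discs at 48 h. At 78 h Klp67A had 69.4, 63.4 and 65.2 CPM in Tip60dn discs, against 90.8, 89.9 and 85.4 CPM in Tip60wt discs and 93.0, 95.5 and 93.4 CPM in control discs. The Tip60dn libraries did not overlap the others at either duration, and the log2 fold change against Tip60wt was -0.32 ± 0.05 at 48 h, adjusted p = 0.00115, and -0.43 ± 0.04 at 78 h, adjusted p = 0.000136. Klp61F, which slides antiparallel microtubules to keep the spindle bipolar, had log2 fold changes of -0.30 ± 0.06 and -0.32 ± 0.04. Klp3A, a kinesin of the central spindle, had log2 fold changes of -0.25 ± 0.05 and -0.22 ± 0.03, and Klp10A, which depolymerizes microtubules at the poles, -0.15 ± 0.04 and -0.14 ± 0.03. The minus-end motor ncd had log2 fold changes of -0.20 ± 0.07 (adjusted p = 0.0431) and -0.21 ± 0.07 (adjusted p = 0.0444), with overlapping libraries. Of 16 alternatives, the calls against Tip60wt held for Klp10A in 13 (adjusted p up to 0.213) and ncd in 8 (adjusted p up to 0.194) at 48 h and for Klp10A in 15 (adjusted p up to 0.0725) and ncd in 8 (adjusted p up to 0.152) at 78 h. Against the control ncd did not pass (log2 fold change -0.19 ± 0.07 and -0.15 ± 0.07), and the other 4 kinesins fell at both durations. Of the exons of ncd, 15.3% lie opposite genes on the other strand, and no source used here states whether counting was strand-specific.

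The cytokinesis genes divided, with tum, feo and sti lower and pav and scra not called in any comparison. feo encodes the Drosophila PRC1, which bundles the antiparallel microtubules of the central spindle. It had 156, 152 and 167 CPM in Tip60dn discs, against 183, 194 and 185 CPM in Tip60wt discs and 191, 202 and 184 CPM in control discs at 48 h. At 78 h feo had 179.7, 157 and 155 CPM in Tip60dn discs, against 214, 195 and 189 CPM in Tip60wt discs and 191, 211 and 192 CPM in control discs. sti, the citron kinase of the midbody, had 271, 273 and 309 CPM in Tip60dn discs, against 331, 355 and 322 CPM in Tip60wt discs and 363, 403 and 342 CPM in control discs at 48 h. At 78 h sti had 313, 289.9 and 279.6 CPM in Tip60dn discs, against 383, 349 and 331.7 CPM in Tip60wt discs and 378, 389 and 379 CPM in control discs. In both genes the Tip60dn libraries were below all others at each duration. The log2 fold changes against Tip60wt were -0.25 ± 0.05 (adjusted p = 0.00483) and -0.28 ± 0.07 (adjusted p = 0.0113) for feo, and -0.24 ± 0.07 (adjusted p = 0.0296) and -0.27 ± 0.06 (adjusted p = 0.00557) for sti. The 48 h calls against Tip60wt held, of 16 alternatives, for tum in 12 (adjusted p up to 0.133) and sti in 12 (adjusted p up to 0.121). tum and pav encode the partners of the centralspindlin complex, a GTPase-activating protein and its kinesin partner. tum fell (log2 fold change -0.25 ± 0.08 and -0.31 ± 0.08), whereas pav had a log2 fold change of 0.07 ± 0.06 at 48 h (adjusted p = 0.420) and -0.01 ± 0.06 at 78 h (adjusted p = 0.873). scra, the anillin that links actin, myosin and septins at the furrow, had log2 fold changes of -0.05 ± 0.06 and -0.06 ± 0.04. The differences between these genes were not tested.

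The RZZ complex brings checkpoint proteins and dynein to unattached kinetochores. Of the 8 genes of the spindle checkpoint and of this complex, 4 fell and 1 rose at 48 h against Tip60wt, and 6 fell at 78 h. Against the control 5 fell at 48 h and 7 at 78 h. The shares called lower over all genes tested were 17.7% and 19.2% against Tip60wt, and 19.4% and 21.7% against the control. Called higher at 48 h against Tip60wt were 18.0%. mad2, the protein that inhibits the anaphase-promoting complex while kinetochores are unattached, had 32.0, 30.2 and 29.8 CPM in Tip60dn discs, against 38.1, 38.6 and 36.5 CPM in Tip60wt discs and 39.9, 41.7 and 35.4 CPM in control discs at 48 h. At 78 h mad2 had 32.8, 30.9 and 29.7 CPM in Tip60dn discs, against 36.4, 38.4 and 38.3 CPM in Tip60wt discs and 39.0, 41.2 and 39.9 CPM in control discs. Tip60dn libraries were the lowest at each duration, and its log2 fold change against Tip60wt was -0.30 ± 0.06 at 48 h, adjusted p = 0.00541, and -0.28 ± 0.05 at 78 h, adjusted p = 0.00210. Zwilch, an RZZ subunit, had 47.8, 47.5 and 50.5 CPM in Tip60dn discs, against 51.7, 60.3 and 53.2 CPM in Tip60wt discs and 54.3, 59.9 and 53.7 CPM in control discs at 48 h. At 78 h Zwilch had 48.6, 48.3 and 49.0 CPM in Tip60dn discs, against 57.5, 58.8 and 56.0 CPM in Tip60wt discs and 57.0, 57.4 and 57.1 CPM in control discs. Its Tip60dn libraries lay below all others, but at 48 h it did not pass against Tip60wt (log2 fold change -0.18 ± 0.07, adjusted p = 0.0615), and its call against the control (log2 fold change -0.20 ± 0.07, adjusted p = 0.0370) was lost in 5 of 16 alternatives (adjusted p between 0.0126 and 0.196). At 78 h Zwilch fell (log2 fold change -0.24 ± 0.03, adjusted p = 0.000591). The RZZ partners had log2 fold changes of -0.20 ± 0.05 and -0.22 ± 0.05 (Zw10, lower at both durations) and -0.03 ± 0.07 and -0.14 ± 0.04 (rod, lower at 78 h). BubR1, the kinase-like partner of mad2 in the inhibitor, fell at both durations (log2 fold change -0.18 ± 0.05 and -0.20 ± 0.04), Bub1, the kinase that recruits the checkpoint to kinetochores, at 48 h (log2 fold change -0.13 ± 0.04, with -0.10 ± 0.04 at 78 h) and Bub3, their shared adaptor, at 78 h (log2 fold change -0.15 ± 0.05, with -0.08 ± 0.05 at 48 h). Mad1, which loads mad2 at kinetochores, had 95.2, 99.5 and 98.1 CPM in Tip60dn discs, against 91.7, 88.6 and 91.9 CPM in Tip60wt discs and 92.7, 93.8 and 91.9 CPM in control discs at 48 h. At 78 h Mad1 had 96.9, 97.2 and 97.6 CPM in Tip60dn discs, against 94.6, 92.0 and 92.3 CPM in Tip60wt discs and 92.0, 90.4 and 95.0 CPM in control discs. Its Tip60dn libraries were above all others, by 0.11 ± 0.04 on the log2 scale against Tip60wt at 48 h (adjusted p = 0.0412) and 0.06 ± 0.03 at 78 h (adjusted p = 0.148). Of 16 alternatives, the calls against Tip60wt held at 48 h for Bub1 in 11 (adjusted p up to 0.426), BubR1 in 12 (adjusted p up to 0.180), Zw10 in 14 (adjusted p up to 0.0906) and Mad1 in 1 (adjusted p up to 0.142), and at 78 h for Bub3 in 10 (adjusted p up to 0.213) and rod in 10 (adjusted p up to 0.229). Of the exons of Bub3, 15.9% lie opposite ppk19, and the strandedness of counting is not known, so its counts are uncertain. ppk19 itself had at most 0.124 CPM in any library.

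At the centromere 3 genes of centromeric chromatin fell at both durations. In this subgroup of 10, with the kinetochore genes, 4 fell and 1 rose at 48 h against Tip60wt, and 6 fell and 1 rose at 78 h. Against the control 5 fell at 48 h and 7 at 78 h, with the same 1 higher. The shares called lower over all genes tested were 17.7% and 19.2% against Tip60wt, and 19.4% and 21.7% against the control. cal1 (BDGP6, chromosome 3R, 17088280 to 17091938, plus strand), the assembly factor that places the centromeric histone in Drosophila, had 60.5, 59.8 and 63.0 CPM in Tip60dn discs, against 82.3, 80.5 and 78.6 CPM in Tip60wt discs and 85.2, 86.1 and 82.6 CPM in control discs at 48 h. At 78 h cal1 had 65.8, 58.3 and 62.4 CPM in Tip60dn discs, against 84.5, 82.5 and 79.4 CPM in Tip60wt discs and 88.1, 84.3 and 87.9 CPM in control discs. No Tip60dn library overlapped another group, and the log2 fold change of cal1 against Tip60wt was -0.40 ± 0.04 at 48 h, adjusted p = 0.000119, and -0.40 ± 0.05 at 78 h, adjusted p = 0.000359. cid, the centromeric histone itself, had log2 fold changes of -0.28 ± 0.08 (adjusted p = 0.0256) and -0.43 ± 0.10 (adjusted p = 0.00933). Of 16 alternatives, the 48 h call held for cid in 10 (adjusted p up to 0.105). Cenp-C, which links that chromatin to the outer kinetochore, had log2 fold changes of -0.28 ± 0.07 and -0.29 ± 0.04. Against the control all 3 fell at both durations, with log2 fold changes of -0.47 to -0.33 at 48 h and -0.48 to -0.27 at 78 h.

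The microtubule-binding KMN network of the outer kinetochore was mixed. In the Ndc80 complex, its microtubule grip, Spc25 fell at both durations (log2 fold change -0.27 ± 0.05 and -0.25 ± 0.04 against Tip60wt). Ndc80 fell at 78 h (log2 fold change -0.23 ± 0.07, adjusted p = 0.0320) and had a log2 fold change of -0.09 ± 0.06 at 48 h, and Nuf2 passed in no comparison (log2 fold change 0.04 ± 0.07 and -0.00 ± 0.05). Spc105R, the platform for checkpoint proteins, had a log2 fold change of -0.20 ± 0.07 at 48 h (adjusted p = 0.0503, which was not under the threshold) and fell at 78 h (log2 fold change -0.18 ± 0.05). Against the control Spc105R fell at 48 h (log2 fold change -0.29, adjusted p = 0.0100, held in 16 of 16 alternatives). Of 16 alternatives, the 78 h calls held for Ndc80 in 10 (adjusted p up to 0.110) and Spc105R in 15 (adjusted p up to 0.0701). In the Mis12 complex, the base of the network, Kmn1 had log2 fold changes of -0.17 ± 0.08 and -0.16 ± 0.07 and Nnf1a 0.04 ± 0.06 and -0.06 ± 0.06 against Tip60wt, and neither passed. Mis12 (BDGP6, chromosome 3L, 6968035 to 6969048, minus strand) rose in all 4 Tip60dn comparisons. It had 17.3, 17.0 and 17.6 CPM in Tip60dn discs, against 12.4, 12.7 and 11.3 CPM in Tip60wt discs and 12.2, 11.4 and 12.6 CPM in control discs at 48 h. At 78 h Mis12 had 15.2, 17.0 and 16.3 CPM in Tip60dn discs, against 11.99, 13.2 and 13.4 CPM in Tip60wt discs and 11.7, 12.9 and 13.9 CPM in control discs. All Tip60dn libraries were above all others at each duration, and the log2 fold change against Tip60wt was 0.51 ± 0.06 at 48 h, adjusted p = 0.000476, and 0.33 ± 0.08 at 78 h, adjusted p = 0.0101. Against the control it was 0.52 ± 0.06 (adjusted p = 0.000356) and 0.33 ± 0.08 (adjusted p = 0.00795). Its exons overlap no other gene of the annotation. Kmn1 fell against the control at 78 h (log2 fold change -0.28 ± 0.07, adjusted p = 0.00712). The counts of Kmn1 are uncertain, because 33.3% of its exons lie opposite CG11699, which had 0 counts in every library, and the strandedness of counting is not known.

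**Figure D3:**
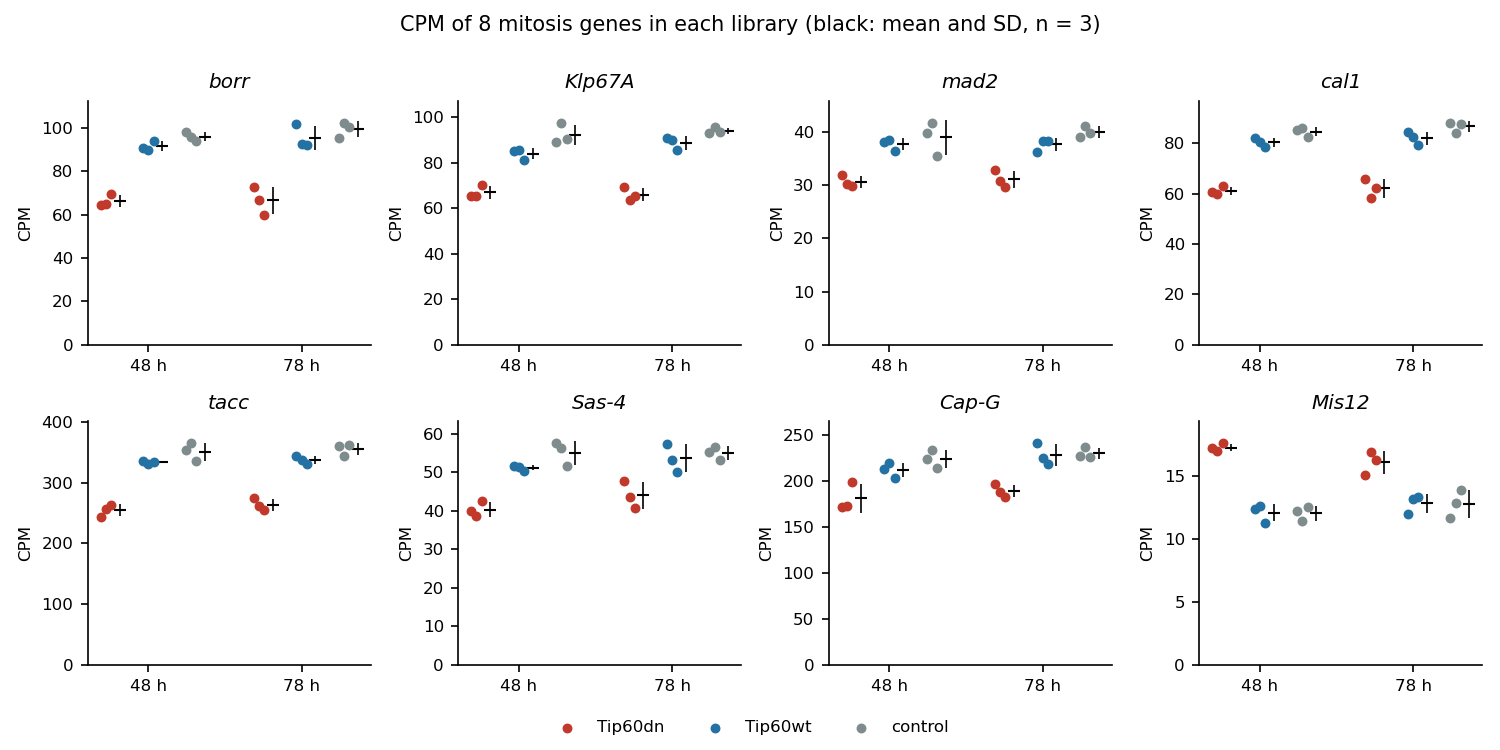
CPM (vertical axis, from 0) of 8 mitosis genes in each library at 48 h and 78 h, for Tip60dn, Tip60wt and control discs from left to right. Black marks give the mean and SD of 3 libraries; in borr, Klp67A, mad2, cal1, tacc, Sas-4 and Cap-G every Tip60dn point lies below every other point of its duration, and in Mis12 above.

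Of the 4 spindle microtubule-associated proteins, 1 fell at 48 h and 2 at 78 h against Tip60wt, and 3 fell at each duration against the control. Of all genes tested, 17.7% and 19.2% were lower against Tip60wt, and 19.4% and 21.7% against the control. Within the members' CPM range the shares against Tip60wt were 26.7% and 29.3%, so 1 of 4 at 48 h was near the share over genes of similar level. The one lower in all 4 comparisons, tacc, which anchors the polymerase msps at centrosomes, had 244, 256 and 263 CPM in Tip60dn discs, against 335, 331 and 334 CPM in Tip60wt discs and 354, 365 and 335 CPM in control discs at 48 h. At 78 h tacc had 275, 261 and 255 CPM in Tip60dn discs, against 344, 338 and 331 CPM in Tip60wt discs and 360.0, 344 and 362 CPM in control discs. The Tip60dn libraries lay apart from the others, and its log2 fold change against Tip60wt was -0.39 ± 0.04 at 48 h, adjusted p = 0.000259, and -0.36 ± 0.04 at 78 h, adjusted p = 0.000168. msps itself had log2 fold changes of -0.13 ± 0.06 and -0.08 ± 0.03, without passing against Tip60wt, and fell against the control at 78 h (log2 fold change -0.11 ± 0.03, adjusted p = 0.0111). asp, which focuses the spindle poles, fell at 78 h (log2 fold change -0.18 ± 0.05, with -0.12 ± 0.07 at 48 h). mars, related to the spindle factor HURP, passed in 1 comparison, against the control at 48 h (log2 fold change -0.36 ± 0.10, adjusted p = 0.0194). Of 16 alternatives, the 78 h calls held for asp in 15 (adjusted p up to 0.0948) against Tip60wt and for msps in 14 (adjusted p up to 0.342) against the control, and the 48 h call against the control for mars in 11 (adjusted p up to 0.0725).

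The centrosome genes gave 1 of 4 lower at 48 h and 2 of 4 at 78 h against Tip60wt, and 2 of 4 and 3 of 4 against the control. Of all genes tested, 17.7% and 19.2% were lower against Tip60wt, and 19.4% and 21.7% against the control. Within the members' CPM range the shares against Tip60wt were 26.7% and 29.3%, so 1 of 4 at 48 h was near the share over genes of similar level. Sas-4, which the centriole needs to grow and to recruit its surrounding material, had 40.0, 38.5 and 42.4 CPM in Tip60dn discs, against 51.6, 51.5 and 50.4 CPM in Tip60wt discs and 57.5, 56.2 and 51.5 CPM in control discs at 48 h. At 78 h Sas-4 had 47.8, 43.6 and 40.8 CPM in Tip60dn discs, against 57.3, 53.2 and 50.1 CPM in Tip60wt discs and 55.3, 56.4 and 53.1 CPM in control discs. The Tip60dn libraries were below all others, while Tip60wt and control overlapped, and its log2 fold change against Tip60wt was -0.34 ± 0.05 at 48 h, adjusted p = 0.00113, and -0.28 ± 0.07 at 78 h, adjusted p = 0.00907. Sas-6, the cartwheel protein of new centrioles, had 15.7, 16.6 and 14.9 CPM in Tip60dn discs, against 17.5, 17.9 and 14.4 CPM in Tip60wt discs and 17.3, 16.8 and 15.1 CPM in control discs at 48 h. At 78 h Sas-6 had 15.1, 14.3 and 14.8 CPM in Tip60dn discs, against 17.8, 18.0 and 17.4 CPM in Tip60wt discs and 16.2, 17.2 and 17.4 CPM in control discs. Its groups overlapped at 48 h (log2 fold change -0.08 ± 0.09, adjusted p = 0.554) and at 78 h every Tip60dn library was below all others (log2 fold change -0.26 ± 0.05, adjusted p = 0.00320). Against the control at 78 h its adjusted p was 0.0112, and 0.0797 with upper quartile scaling, where the call was lost. cnn and spd-2, which build the pericentriolar matrix, had log2 fold changes of -0.01 ± 0.07 and -0.17 ± 0.08 at 48 h and -0.18 ± 0.07 and -0.18 ± 0.08 at 78 h against Tip60wt, and neither passed. Against the control spd-2 fell at 48 h (log2 fold change -0.27, adjusted p = 0.0236, held in 11 of 16 alternatives) and cnn at 78 h. Same-numbered libraries of Tip60dn and Tip60wt at 78 h were read as pairs from the correlation of their deviations, since the labels do not state pairing. With the replicate block, which also covered the control libraries, cnn passed there (log2 fold change -0.18, adjusted p = 0.0286, against 0.0798 without it).

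Condensin, the ring that compacts mitotic chromosomes, was represented by 5 subunits, of which 4 fell at both durations against Tip60wt. The shares called lower over all genes tested were 17.7% at 48 h and 19.2% at 78 h. Cap-G, a HEAT-repeat subunit, had 171, 172 and 199 CPM in Tip60dn discs, against 213, 219 and 203 CPM in Tip60wt discs and 224, 233 and 214 CPM in control discs at 48 h. At 78 h Cap-G had 196, 188 and 183 CPM in Tip60dn discs, against 241, 225 and 218 CPM in Tip60wt discs and 227, 237 and 226 CPM in control discs. The Tip60dn libraries were below all others, and its log2 fold change against Tip60wt was -0.23 ± 0.06 at 48 h, adjusted p = 0.0205, and -0.27 ± 0.04 at 78 h, adjusted p = 0.00177. Of 16 alternatives, the condensin calls against Tip60wt held at 48 h for SMC2 in 12 (adjusted p up to 0.1998), glu in 9 (adjusted p up to 0.235), barr in 11 (adjusted p up to 0.305) and Cap-G in 12 (adjusted p up to 0.0950). The 78 h calls held in all of them, except for barr in 15 (adjusted p up to 0.0914). The ATPase subunits SMC2 and glu had log2 fold changes of -0.18 ± 0.06 and -0.18 ± 0.06 at 48 h and -0.26 ± 0.06 and -0.24 ± 0.05 at 78 h, and barr, the kleisin that closes the ring, -0.16 ± 0.05 and -0.18 ± 0.05, all called lower. The other HEAT-repeat subunit, Cap-D2, had log2 fold changes of -0.04 ± 0.07 and -0.13 ± 0.05 without passing, and fell against the control at 78 h (log2 fold change -0.14 ± 0.05, adjusted p = 0.0434), a call that, of 16 alternatives, held for Cap-D2 in 9 (adjusted p up to 0.369).

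Of the 4 genes of the separase complex and the Cks proteins, 1 fell and 1 rose at 48 h and 3 fell at 78 h against Tip60wt. Of all genes tested, 17.7% were lower and 18.0% higher at 48 h, and 19.2% were lower and 17.6% higher at 78 h. Within the members' CPM range 26.7% and 29.3% were lower, so 1 of 4 at 48 h was near the share over genes of similar level. Sse, the separase that cuts cohesin at anaphase, had 16.5, 16.1 and 16.9 CPM in Tip60dn discs, against 18.5, 22.2 and 21.9 CPM in Tip60wt discs and 20.5, 21.6 and 21.4 CPM in control discs at 48 h. At 78 h Sse had 17.2, 16.2 and 16.8 CPM in Tip60dn discs, against 22.2, 19.4 and 19.3 CPM in Tip60wt discs and 20.4, 21.9 and 22.3 CPM in control discs. All Tip60dn libraries were below all others, and its log2 fold change against Tip60wt was -0.34 ± 0.07 at 48 h, adjusted p = 0.00556, and -0.28 ± 0.07 at 78 h, adjusted p = 0.00919. thr, the fly-specific partner of separase, had a log2 fold change of -0.18 ± 0.06 at 48 h (adjusted p = 0.0565, not under the threshold) and fell at 78 h (log2 fold change -0.33 ± 0.08). Against the control thr fell at 48 h too (log2 fold change -0.32, adjusted p = 0.00380, held in 16 of 16 alternatives). The Cks proteins, small subunits of cyclin-dependent kinases, gave opposite values. Cks30A had a log2 fold change of -0.14 ± 0.08 at 48 h without passing and fell at 78 h (log2 fold change -0.31 ± 0.08, adjusted p = 0.0127) against Tip60wt. Against the control Cks30A fell at 48 h (log2 fold change -0.29, adjusted p = 0.0179, held in 11 of 16 alternatives). Cks85A had 18.8, 16.5 and 16.5 CPM in Tip60dn discs, against 14.9, 14.5 and 14.1 CPM in Tip60wt discs and 12.8, 12.5 and 11.4 CPM in control discs at 48 h. At 78 h Cks85A had 14.8, 16.9 and 15.8 CPM in Tip60dn discs, against 14.8, 14.995 and 14.1 CPM in Tip60wt discs and 12.2, 13.5 and 12.1 CPM in control discs. Its Tip60dn libraries were above all others at 48 h, and at 78 h above the control but overlapping Tip60wt. Cks85A rose against Tip60wt at 48 h (log2 fold change 0.26 ± 0.07, adjusted p = 0.0220, lost in 4 of 16 alternatives, each without 1 library) and against the control at both durations (log2 fold change 0.50 ± 0.07, adjusted p = 0.000794, and 0.33 ± 0.07, adjusted p = 0.00368). At 78 h it had a log2 fold change of 0.11 ± 0.07 against Tip60wt (adjusted p = 0.217). The counts of Cks85A are uncertain, because 74.9% of its exons lie opposite CG8112, at 0 counts in every library, and TMEM216, whose log2 fold change against Tip60wt was -0.31 ± 0.09 at 48 h and -0.36 ± 0.08 at 78 h.

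**Figure D4:**
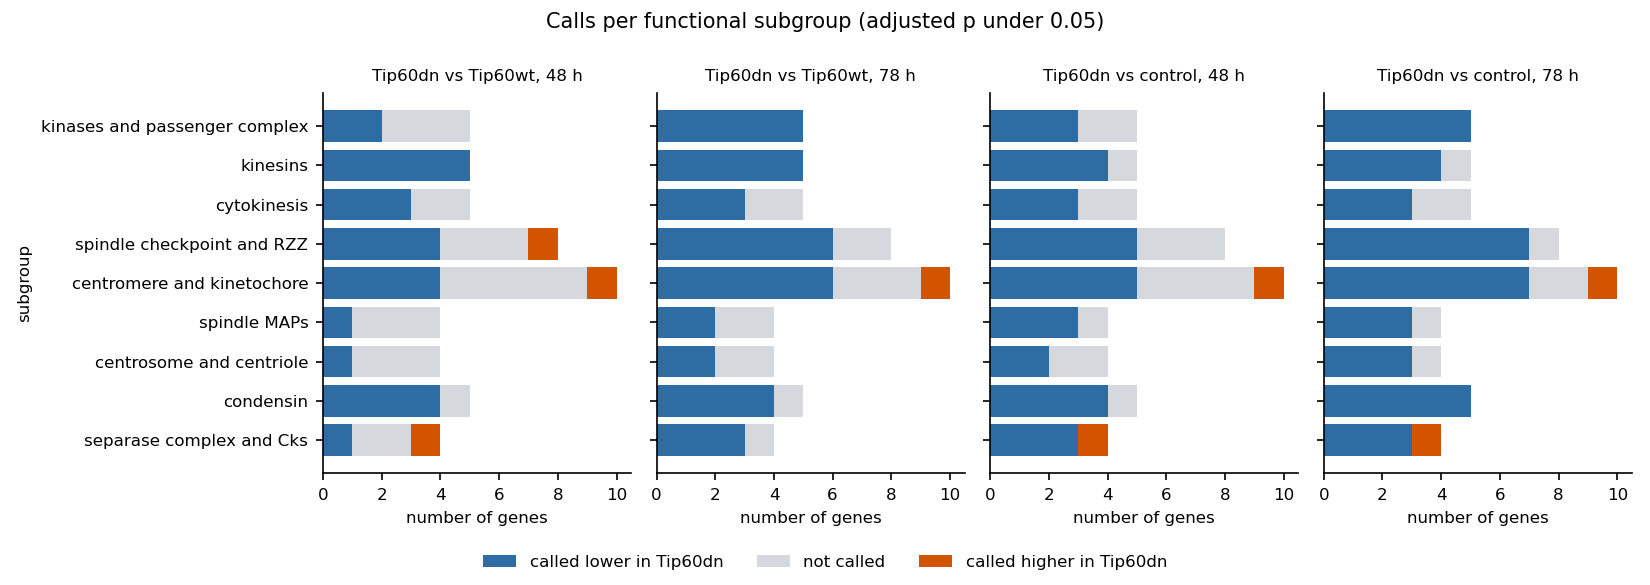
Number of genes (horizontal axis) called lower, not called or called higher in Tip60dn discs in each of the 9 subgroups, for the 4 comparisons of Tip60dn. Kinesins and condensin have 5 of 5 and 4 of 5 genes lower against Tip60wt at both durations, and the centromere and kinetochore subgroup has 1 gene higher, Mis12, in all 4. Of all genes tested, 17.7% were called lower against Tip60wt at 48 h and 19.2% at 78 h.

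By subgroup of the members, the median log2 fold change against Tip60wt lay between -0.25 and -0.12 at 48 h and between -0.30 and -0.18 at 78 h. It was below 0 in all 9 of these subgroups at each duration, which did not hold for every group of the other mitosis genes given below. Differences between subgroups were not tested. Across the 50 genes, which share their libraries, the log2 fold change against Tip60wt was set against the mean CPM of the Tip60wt libraries. Spearman's rho was -0.08 at 48 h and 0.03 at 78 h. The Tip60wt libraries also enter the fold change. The genes lie on all major chromosome arms, and at 78 h those called lower against Tip60wt were 5 of 7 on 2L, 7 of 12 on 2R, 7 of 10 on 3L, 12 of 15 on 3R and 5 of 6 on X. Over all genes tested the shares called lower were 18.7% on 2L, 19.1% on 2R, 18.6% on 3L, 20.1% on 3R and 19.3% on X.

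The 2 durations, which share no library, gave similar values. Against Tip60wt, 24 genes were called lower at both, 1 (Bub1) at 48 h alone, 12 at 78 h alone and 13 at neither, of which Mis12 was higher at both. Against the control, 30 were lower at both, 2 (mars and spd-2) at 48 h alone, 10 at 78 h alone and 8 at neither. Across the 50 genes the log2 fold changes at 48 h and 78 h had a Pearson's r of 0.92 and a Spearman's rho of 0.84 against Tip60wt. The sign was the same in 47 of 50 genes, and the value at 78 h was the lower in 38. Of all genes tested, 17.7% at 48 h and 19.2% at 78 h were called lower against Tip60wt. Against the control the shares were 19.4% and 21.7%. The share lower at both durations, the correlations and the shared signs were not computed over all genes. Whether this likeness of the durations is particular to the members was not tested. A call at 1 duration alone does not show a difference between durations, and the test of that difference (78 h minus 48 h, an interaction over all 18 libraries) called 0 of 50 genes against Tip60wt and 0 of 50 against the control, by edgeR and by DESeq2. At an unadjusted p under 0.05 it also took 0 of 50 in each. Over the 11173 genes tested, the shares called were 0.00% and 0.00% by edgeR, with 623 and 777 genes at an unadjusted p under 0.05, and DESeq2 called 4 and 32 genes. The smallest adjusted p among the members was 0.872 against Tip60wt and 0.732 against the control. The SE of these differences had a median of 0.09 on the log2 scale, and the largest difference was -0.18 ± 0.11 for Sas-6 against Tip60wt and 0.20 ± 0.14 for mars against the control.

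**Figure D5:**
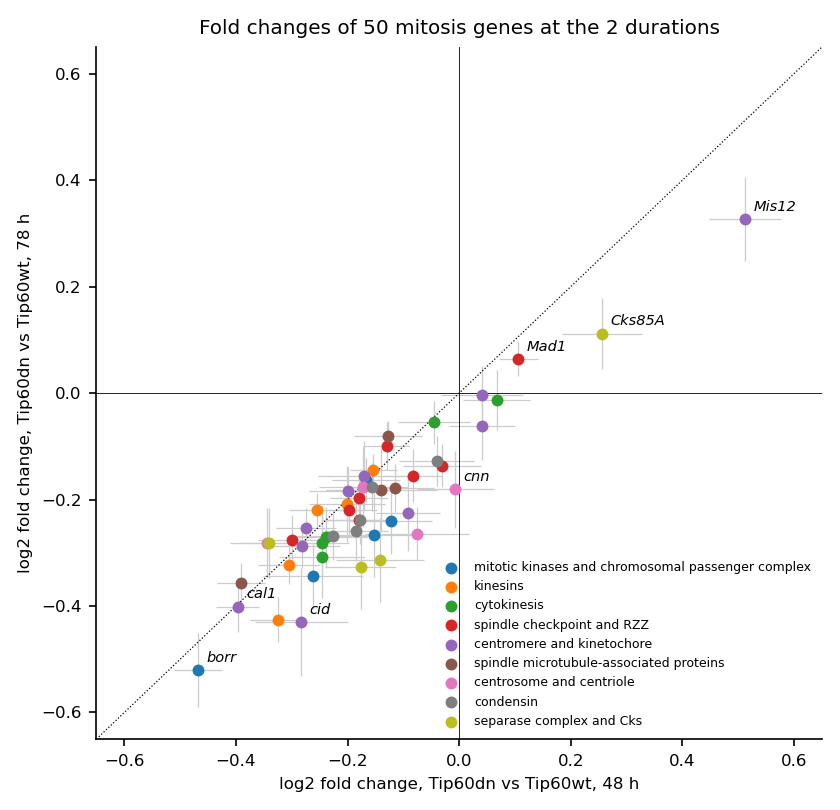
Log2 fold change of each of the 50 mitosis genes in Tip60dn against Tip60wt discs at 48 h (horizontal) and 78 h (vertical), coloured by subgroup, with SE as grey bars and equality as a dotted line. The points follow the line, with borr lowest and Mis12 highest at both durations.

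Wild type Tip60 alone gave no call among the mitosis genes. Tip60wt against the control had 0 of 50 genes called at 48 h and 0 of 50 at 78 h, by edgeR and by DESeq2, while 1.84% of all genes were called lower and 1.73% higher at 48 h, and 1.97% lower and 2.09% higher at 78 h. At an unadjusted p under 0.05 there were 6 genes at 48 h, 5 of them lower in Tip60wt, and 1 at 78 h, where 17.2% and 20.4% of all genes tested were under that p. The median log2 fold change was -0.06 at 48 h and -0.02 at 78 h, with 40 and 29 of 50 genes below 0. The smallest adjusted p was that of Cks85A, 0.122 at 48 h (log2 fold change 0.24 ± 0.07) and 0.108 at 78 h (log2 fold change 0.22 ± 0.07), with the Tip60wt libraries above the control ones at both. borr, Klp67A and cal1 had log2 fold changes of -0.07 ± 0.04, -0.14 ± 0.05 and -0.07 ± 0.04 at 48 h and -0.06 ± 0.07, -0.08 ± 0.04 and -0.08 ± 0.05 at 78 h. These comparisons share their control libraries with those of Tip60dn against the control.

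Other genes of mitosis, a list of 71 covering cohesin, condensin II, augmin and the gamma-tubulin ring, centrioles, dynein and further kinesins and cytokinesis genes, was tested beside the members, and the difference between the lists was not tested. Of 68 matched and 65 tested, 17 were called lower and 6 higher against Tip60wt at 48 h, and 23 lower and 6 higher at 78 h. Their median log2 fold changes were -0.07 and -0.09. By role, the medians ran from -0.14 (condensin II and other kinetochore) to 0.04 (other cytokinesis) at 48 h. For the same 2 groups they were -0.15 and 0.004 at 78 h. Of the 12 other cytokinesis genes, 2 were lower and 2 higher at 48 h, and 3 lower and 4 higher at 78 h. Of the 65 tested, 26.2% were lower and 9.23% higher at 48 h, beside 17.7% and 18.0% of all genes. At 78 h 35.4% were lower and 9.23% higher, beside 19.2% and 17.6%. Of all genes within the members' CPM range, 26.7% and 29.3% were lower. Against the control 26 of the 65 were lower and 7 higher at 48 h, and 27 and 7 at 78 h. Of all genes, 19.4% were lower and 19.6% higher at 48 h, and 21.7% and 22.4% at 78 h. Tip60wt against the control had 2 lower at 48 h and 1 lower at 78 h. The augmin subunit dgt6, part of the complex that nucleates microtubules within the spindle, averaged 39.3 ± 1.44 CPM in Tip60dn and 50.3 ± 1.38 CPM in Tip60wt discs at 48 h (SD, n = 3 each), a log2 fold change of -0.36 ± 0.05 (adjusted p = 0.000761), and fell also at 78 h (log2 fold change -0.39 ± 0.05, adjusted p = 0.000459). Its partner dgt5 fell at 48 h (log2 fold change -0.35 ± 0.05, adjusted p = 0.00121), as did Septin2, a septin of the furrow (log2 fold change -0.23 ± 0.03, adjusted p = 0.00125). At 78 h Dhc64C, the dynein heavy chain, averaged 567 ± 19.5 CPM in Tip60dn and 718 ± 23.0 CPM in Tip60wt discs (log2 fold change -0.34 ± 0.04, adjusted p = 0.000194). sqh, the regulatory light chain of the furrow myosin, rose, with 293 ± 4.79 CPM in Tip60dn and 250.0 ± 3.22 CPM in Tip60wt discs (log2 fold change 0.23 ± 0.03, adjusted p = 0.000364).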

How the data were processed

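Per the labels, polyadenylated RNA of 40 pooled wing discs was sequenced for each of 18 directional libraries, 3 in each of 6 groups. The authors deposited raw counts per FlyBase gene identifier in 1 table for each duration. The submitters' processing notes name build BDGP6 and the tools FastQC, featureCounts, edgeR 3.13.4 and limma. Aligner, strandedness of counting, annotation release and treatment of multi-mapped reads are not given in the sources that were used, so overlapping and antisense genes may share reads. No pair of libraries of 1 group agreed within sampling noise.

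Symbols and BDGP6 coordinates came from Ensembl release 115, matched for 17253 of 17559 identifiers. The 9 libraries of a duration entered 1 fit, with group as its single term (R 4.3.3, edgeR 4.0.16: filterByExpr with a minimum count of 10, TMM factors, glmQLFit and glmQLFTest, Benjamini-Hochberg over all genes tested). There were 10693 genes tested at 48 h and 10598 at 78 h, with a common biological coefficient of variation of 0.181 and 0.192. Differences between durations were tested over all 18 libraries. SEs of log2 fold changes were derived from the F statistic (absolute value over root F). RPKM used the summed exon length of the annotation. Alternatives were DESeq2 1.42.0, other scalings, no filter, a fit of the compared groups alone, a replicate block and leaving out each library.

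Same-numbered replicates were read as pairs where all 3 correlations of their deviations from group means passed 0.1. This held for Tip60dn and Tip60wt at 78 h (0.29, 0.35 and 0.32). The labels do not state pairing. Deviations within a group sum to 0 for each gene, so the 3 correlations are not independent. The counts of calls come from the fit without a replicate term, unless the block is named. CPM of every library is given for the member of each subgroup with the smallest adjusted p against Tip60wt at each duration and for every member called higher in a Tip60dn comparison. Of the other mitosis genes, up to 3 with the smallest adjusted p at each duration are named. The members and lists were chosen with earlier results of these data known. Sequences and promoter motifs were not analysed here.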

Additional observations from a re-analysis of the deposited data

How the results depend on the processing

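No direction of a called gene turned round under any alternative. The Tip60wt comparisons of borr, Klp61F, Klp67A, Klp3A, feo, mad2, cal1, Cenp-C, Spc25, tacc, Sas-4, Sse and Mis12 were called at both durations in all 16 alternatives. Upper quartile scaling moved most: it gave 12 genes lower against Tip60wt at 48 h (25 with TMM) and 26 lower against the control at 78 h (40 with TMM), and 2 higher against Tip60wt at 78 h (1 with TMM, the other being Mad1), and the cause was not tested. DESeq2, its size factors within edgeR, library totals, no filter and a fit of the compared groups alone kept the 4 counts of genes lower within 1.5 times, at 23 to 29 and 30 to 39 against Tip60wt and 32 to 35 and 40 against the control at 48 h and 78 h. Leaving out 1 library gave 13 to 30 lower and 1 to 2 higher against Tip60wt at 48 h, 30 to 39 lower at 78 h, 24 to 36 lower against the control at 48 h and 32 to 40 at 78 h. The replicate block gave 23 and 37 lower against Tip60wt at 48 h and 78 h. At 78 h, where same-numbered Tip60dn and Tip60wt libraries were read as pairs, it added cnn and changed no other call. The block also covered the control libraries, whose correlations at 78 h were -0.04, -0.10 and -0.07 with Tip60dn. With Tip60wt they were 0.07, -0.02 and 0.01, so the block is not a fit of the Tip60dn and Tip60wt pairs alone. Elsewhere not all correlations of same-numbered libraries passed 0.1. At 48 h they were 0.01, 9.43e-04 and 0.25 for Tip60dn and Tip60wt. They were 0.11, 0.03 and 0.07 for Tip60dn and control, and 0.22, 0.06 and 0.22 for Tip60wt and control. In both of these pairs with the control, 3 of 3 libraries correlated best with the control library of their own number. Tip60wt against the control, and the differences between durations, stayed at 0 calls throughout. Pairs of libraries of 1 group had a chi-square per gene of 12.6 to 93.0, where counting error alone gives about 1, so the spread between libraries limits these values more than depth does.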
